A study of Homo sapiens with 12 samples.

Results

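The 10 genes described here carry the MHC class II presentation pathway of B cells: the coactivator gene CIITA, the invariant chain gene CD74, the antigen-presenting chains HLA-DRA, HLA-DRB1, HLA-DPA1, HLA-DPB1 and HLA-DQA1, and the peptide-loading genes HLA-DMA, HLA-DMB and HLA-DOB. They were taken by name from the 63677 genes of the count table, with earlier results of these data known, and each matched 1 Ensembl gene. All 10 were among the 18674 genes that passed the filter on low counts. RNA was sequenced from 3 mantle cell lymphoma (MCL) cell lines, JEKO1, JVM2 and MAVER1, after 48 h in 4 conditions: no drug (control), ironomycin, ibrutinib, or the drugs combined. Ironomycin, made from salinomycin, traps iron in the lysosome and was given at 50 nM to JEKO1 and at 250 nM to JVM2 and MAVER1. Ibrutinib, an inhibitor of Bruton's tyrosine kinase downstream of the B-cell receptor, was given at 0.5 µM to JEKO1, 1.5 µM to JVM2 and 6.25 µM to MAVER1. Each line and treatment gave 1 library of polyadenylated RNA, so that the cell line served as the replicate (n = 3 per treatment). Dose and cell line changed together and cannot be told apart, and a p-value here measures the spread between these 3 lines or among the libraries of a line, pooled over the 3 lines.

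MHC class II molecules display peptides from endocytosed proteins on B cells and other professional antigen-presenting cells to CD4+ T cells. Their genes are transcribed when the coactivator CIITA docks on a complex of RFX, NF-Y and CREB proteins bound to the X and Y boxes just upstream of each start site. In the endoplasmic reticulum, alpha and beta chains assemble on the invariant chain, which blocks the peptide groove and steers the complex to endosomes, where proteases trim it to a short remnant. HLA-DM then exchanges that remnant for an antigenic peptide, and HLA-DO, found mainly in B cells, restrains HLA-DM.

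Because these genes share a promoter design, the upstream sequences are shown first for the members in which the X core and the Y box could be read. RefSeq promoter sequences (build GRCh38.p14, 250 bases before to 50 after a start site) were at hand for 8 of the 10 members, and no sequence is shown for CIITA and HLA-DRA. The X core was searched as AGNNACNG and the Y box, an inverted CCAAT, as ATTGG, on both strands; these motifs do not overlap in the windows printed. On the gene strand, an X core followed by ATTGG after 5 to 30 bases was present in 3 members, HLA-DRB1, HLA-DQA1 and HLA-DMA, and in 0.686% of the 35116 promoter windows of the table. Capitals mark the X core and the Y box in the 5′ to 3′ sequences of the gene strand, at chr6:32589875-32589947 (minus strand) for HLA-DRB1, chr6:32637284-32637357 (plus strand) for HLA-DQA1 and chr6:32953157-32953230 (minus strand) for HLA-DMA.
HLA-DRB1: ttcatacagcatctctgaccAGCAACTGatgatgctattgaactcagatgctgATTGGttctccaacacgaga
HLA-DQA1: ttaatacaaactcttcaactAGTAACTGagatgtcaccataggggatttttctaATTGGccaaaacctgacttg
HLA-DMA: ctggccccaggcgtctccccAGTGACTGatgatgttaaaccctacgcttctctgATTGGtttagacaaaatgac

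The spacing between the X core and the Y box was 25 bases in HLA-DRB1 and 26 bases in HLA-DQA1 and HLA-DMA. The X core began 79 bases before the start site in HLA-DRB1, 102 in HLA-DQA1 and 113 in HLA-DMA. Other members held only part of the searched letters. HLA-DMB held the X core without ATTGG behind it, at chr6:32941063-32941136 (minus strand), and HLA-DPB1 and HLA-DOB held ATTGG without the X core before it, at chr6:33075837-33075910 (plus strand) and chr6:32817081-32817154 (minus strand). They are printed to set the partial matches beside the complete ones.
HLA-DMB: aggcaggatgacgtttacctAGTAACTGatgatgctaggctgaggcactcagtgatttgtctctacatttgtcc
HLA-DPB1: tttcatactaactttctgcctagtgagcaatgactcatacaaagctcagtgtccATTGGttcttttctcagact
HLA-DOB: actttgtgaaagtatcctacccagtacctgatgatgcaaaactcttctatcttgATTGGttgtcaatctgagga

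Alone, the X core letters were found in 48.4% and ATTGG in 34.6% of the windows, so a lone match says little about a promoter. HLA-DPA1 held the X core in 1 of its 2 windows, and CD74 had neither motif on the gene strand. Among the other class II genes, 4 of the 5 with a window met the same rule: HLA-DQB1, HLA-DRB5 and HLA-DOA with 25, 25 and 26 bases between the motifs, and HLA-DQB2 with 8. A match describes letters in the reference and not binding in these cells.

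**Figure D1:**
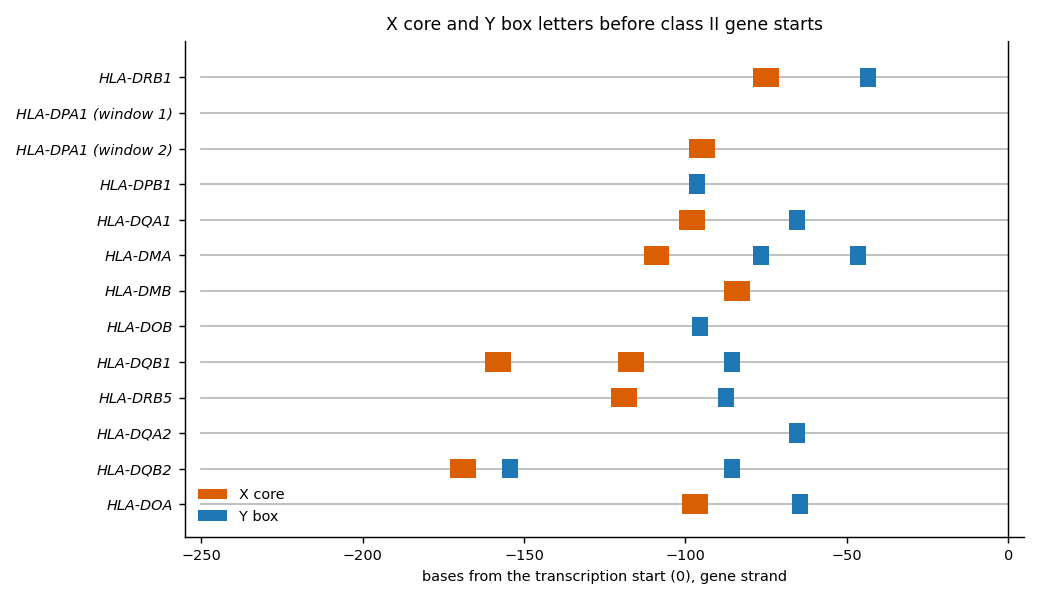
Position of the X core (AGNNACNG) and the Y box (ATTGG) on the gene strand in the 250 bases before the start sites of 7 members and 5 other class II genes; the x axis is the distance in bases from the start site. HLA-DRB1, HLA-DQA1, HLA-DMA, HLA-DQB1, HLA-DRB5 and HLA-DOA carry both motifs 25 or 26 bases apart, and HLA-DQB2 carries them 8 bases apart.

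The libraries held 35448523 to 38630809 counted reads (median 38212833). The 7 mature B cell markers summed to between 1272 and 2254 CPM (reads scaled to a common library size) in every line, with none at 0. The 4 T cell markers summed to at most 3.23 CPM and the 7 myeloid and dendritic cell markers to at most 6.40 CPM. The MCL markers CCND1, SOX11 and CD5 summed to 2367 to 3634 CPM in JEKO1 and 4353 to 5026 CPM in MAVER1, but to 216 to 322 CPM in JVM2, where SOX11 was at 0. The 5 plasma cell markers summed in control, ironomycin, ibrutinib and the combination to 257, 596, 272 and 623 CPM in JEKO1, to 786, 667, 683 and 603 in JVM2, and to 795, 1158, 831 and 1298 in MAVER1. The B cell markers summed in the same order to 2126, 1580, 2254 and 1561 CPM in JEKO1, 1881, 1866, 1968 and 1938 in JVM2, and 1857, 1272, 1824 and 1352 in MAVER1. In JEKO1 and MAVER1 the libraries with ironomycin were thus higher in the first sum and lower in the second. In JVM2 they were lower in the first sum, and in the second slightly lower than their match without ironomycin. A sum follows its abundant markers, in JEKO1 CD79B (416 to 839 CPM) and MZB1 (208 to 455 CPM). Single markers could differ from it: in JEKO1 MS4A1 was highest under ironomycin (360 CPM) and SDC1 lowest with both drugs (1.06 CPM). The part of these shifts in the ironomycin results was not tested. In bulk RNA, fewer cells expressing a gene and less RNA per cell cannot be told apart.

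The 10 genes took 0.510% to 0.547% of all counted reads in JEKO1, 0.953% to 1.08% in JVM2 and 0.842% to 0.915% in MAVER1. CD74 alone gave 45.0% to 57.6% of these reads. The remaining genes spanned a wide range of levels, from HLA-DRA with 37932 to 66727 reads per library down to HLA-DOB with 27 to 185 reads. To compare genes, CPM were divided by the median length of each gene's annotated coding transcripts. CD74 then stood at 3814 ± 1278 CPM per kilobase (SD, n = 12 libraries), with no overlap with any other member. HLA-DRA followed at 1097 ± 253 CPM per kilobase, then HLA-DRB1 at 617 ± 280, HLA-DPA1 at 427 ± 202, HLA-DQA1 at 268 ± 168 and HLA-DPB1 at 186 ± 43.9, and the ranges of neighbours in this order overlapped over the 12 libraries. The peptide-loading genes and the coactivator lay below all antigen-presenting chains in the mean, HLA-DMA at 69.1 ± 25.5, CIITA at 48.0 ± 25.7, HLA-DMB at 25.5 ± 9.88 and HLA-DOB at 1.31 ± 0.818 CPM per kilobase. Within JVM2 all 10 genes were separated from their neighbours in rank, whereas in JEKO1 HLA-DQA1 dropped to 45.2 ± 8.80 CPM per kilobase (n = 4), between HLA-DMA and CIITA, and overlapped both.

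The antigen-presenting chains and the coactivator were ordered differently across the 3 lines. CIITA, without which class II genes are not transcribed, had log2 CPM in JEKO1 of 7.35 in control, 7.42 under ironomycin, 7.23 under ibrutinib and 7.46 under the combination. In JVM2 these values were 6.72, 6.88, 7.004 and 7.37, and in MAVER1 8.22, 8.72, 8.40 and 8.80. MAVER1 was thus highest in every treatment, and JVM2 overlapped JEKO1. CIITA was higher in MAVER1 than in JEKO1 by 1.17 (SE 0.10, adjusted p = 1.91e-06) and lower in JVM2 than in MAVER1 by a log2 difference of -1.54 (SE 0.10, adjusted p = 1.56e-07), in the edgeR quasi-likelihood test over all genes. Between JVM2 and JEKO1 the log2 difference was -0.37 (SE 0.10, adjusted p = 0.00581).

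**Figure D2:**
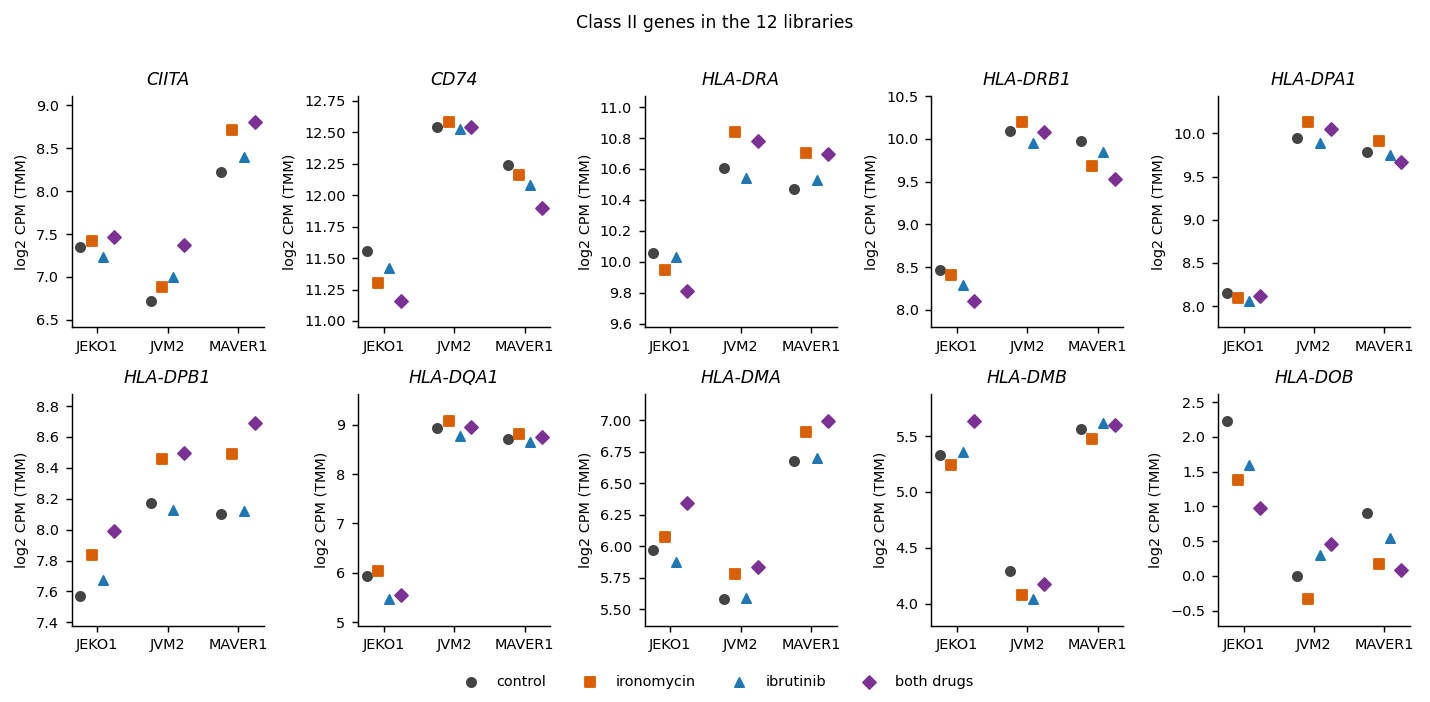
Log2 CPM (TMM-normalised) of each of the 10 class II genes, with 1 point per library: cell lines along the x axis and treatments by colour and shape. Each panel has its own y axis. All 3 lines are separate only for CD74 and HLA-DMA, and JVM2 and MAVER1 overlap for 6 of the 10 genes. CIITA (in the mean), HLA-DMA and HLA-DMB are lowest in JVM2, and CD74 and the DR, DP and DQ chains are lowest in JEKO1.

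CD74, the invariant chain, was lowest in JEKO1. Its log2 CPM in control, ironomycin, ibrutinib and both drugs was 11.56, 11.30, 11.42 and 11.16 in JEKO1, against 12.54, 12.58, 12.53 and 12.54 in JVM2 and 12.24, 12.16, 12.08 and 11.90 in MAVER1. The 3 lines did not overlap, and JVM2 exceeded JEKO1 by 1.19 (SE 0.10, adjusted p = 6.13e-07). HLA-DQA1, an alpha chain of DQ, showed the widest gap among the members, with 5.94, 6.04, 5.47 and 5.55 in JEKO1, 8.93, 9.08, 8.76 and 8.96 in JVM2, and 8.72, 8.81, 8.65 and 8.75 in MAVER1. Its log2 difference from JEKO1 was 3.18 in JVM2 (SE 0.10, adjusted p = 3.22e-10) and 2.98 in MAVER1 (SE 0.10, adjusted p = 1.34e-09). Its partner chain gene HLA-DQB1, which is no member, also stood higher than in JEKO1, by 3.03 (SE 0.09) in JVM2 and 4.33 (SE 0.09) in MAVER1.

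HLA-DPA1 and HLA-DRB1 followed the same order of lines. HLA-DPA1 was higher than in JEKO1 by 1.90 (SE 0.08) in JVM2 and 1.67 (SE 0.08) in MAVER1, and HLA-DRB1 by 1.77 (SE 0.10) and 1.44 (SE 0.09). The differences were smaller for HLA-DRA, at 0.73 (SE 0.10) and 0.63 (SE 0.10), and for HLA-DPB1, at 0.55 (SE 0.07) and 0.58 (SE 0.07). Against JEKO1 these 6 genes, CD74 included, had an adjusted p of at most 0.000171 in both lines, and their libraries did not overlap. Between JVM2 and MAVER1, HLA-DRA differed by 0.10 (95% interval -0.12 to 0.31, adjusted p = 0.400), HLA-DPB1 by -0.04 (-0.19 to 0.12, 0.645) and HLA-DQA1 by 0.20 (0.0015 to 0.40, 0.0666), none of which passed the threshold. HLA alleles differ between people and so between cell lines, and reads were aligned to 1 reference, so levels of these polymorphic genes across lines may carry an alignment difference that was not tested. HLA-DRB1 shares 9.92% of its 50-base windows with other genes, HLA-DRB5 among them, and is uncertain to that extent. CIITA shares 11.5% of its windows, mainly with AC133065.3 on the same strand.

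The peptide-loading genes did not follow the chains. HLA-DMA had log2 CPM of 5.97, 6.08, 5.88 and 6.35 in JEKO1, 5.58, 5.78, 5.58 and 5.83 in JVM2, and 6.68, 6.91, 6.70 and 6.998 in MAVER1, in the order control, ironomycin, ibrutinib and both drugs. The 3 lines did not overlap, with MAVER1 highest and JVM2 lowest, the order of the CIITA means. HLA-DMB, the other chain of HLA-DM, lay between 4.04 and 4.29 in JVM2, 5.24 and 5.64 in JEKO1, and 5.47 and 5.62 in MAVER1. JVM2 was lower than JEKO1 by a log2 difference of -1.25 (SE 0.09, adjusted p = 1.38e-07), while MAVER1 and JEKO1 overlapped (0.17, SE 0.08, adjusted p = 0.0962). HLA-DOB, the beta chain of the HLA-DM inhibitor HLA-DO, was highest in JEKO1, with 185, 107, 118 and 81 reads against 33, 27, 42 and 49 in JVM2 and 66, 40, 52 and 38 in MAVER1. Its log2 difference from JEKO1 was -1.47 (SE 0.25, adjusted p = 0.000222) in JVM2 and -1.17 (SE 0.24, adjusted p = 0.00122) in MAVER1. HLA-DOB has the largest overlap of the members, with 29.7% of its exonic bases and 26.1% of its windows shared with AL669918.1 on the same strand, so its reads are uncertain to that extent in each comparison given here.

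Counting genes that passed both an adjusted p under 0.05 and a log2 difference of at least 1, 6 of 10 members differed between JVM2 and JEKO1, beside 46.8% of all genes tested: 4 were higher (22.8% of all genes) and 2 lower (23.9%). For MAVER1 against JEKO1 the count was 5 of 10, beside 34.2%, with 4 higher (15.1%) and 1 lower (19.1%). For JVM2 against MAVER1 it was 3 of 10, beside 40%, with 0 higher (21.4%) and 3 lower (18.5%). On adjusted p alone, 10, 9 and 6 members passed in these comparisons, beside 78.3%, 66.4% and 71.2% of all genes, so the members' counts lay above, above and below those of all genes. The libraries of JVM2 and JEKO1 did not overlap for 9 of 10 members, beside 68.5% of all genes, those of MAVER1 and JEKO1 for 9 of 10, beside 50.9%, and those of JVM2 and MAVER1 for 4 of 10, beside 62.4%. The median log2 difference of the members was 0.64 for JVM2 against JEKO1 and 0.74 for MAVER1 against JEKO1, beside -0.03 over all genes in both comparisons.

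Between treatments, no fitted change of a member over all 12 libraries reached 1 on the log2 scale. With both drugs against control, the members' counts lay near the shares of all genes. With both drugs against control, no member passed both thresholds, beside 6.29% of all genes tested, while 3 members passed on adjusted p alone, beside 28.2%, and 4 had an unadjusted p under 0.05, beside 41.1%. These 3 were CIITA, HLA-DPB1 and HLA-DMA, which rose by less than 0.5 on the log2 scale. The median over the 10 members was 0.02, beside 0.05 over all genes, with 5 of 10 above 0. In all 3 lines, 3 members were higher and 1, HLA-DRB1, was lower, beside 25.4% and 23.1% of all genes, or 4 of 10 with 1 sign, beside 48.5%. The fitted changes of the members ranged from -0.62 (HLA-DOB) to 0.44 (HLA-DPB1).

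**Figure D3:**
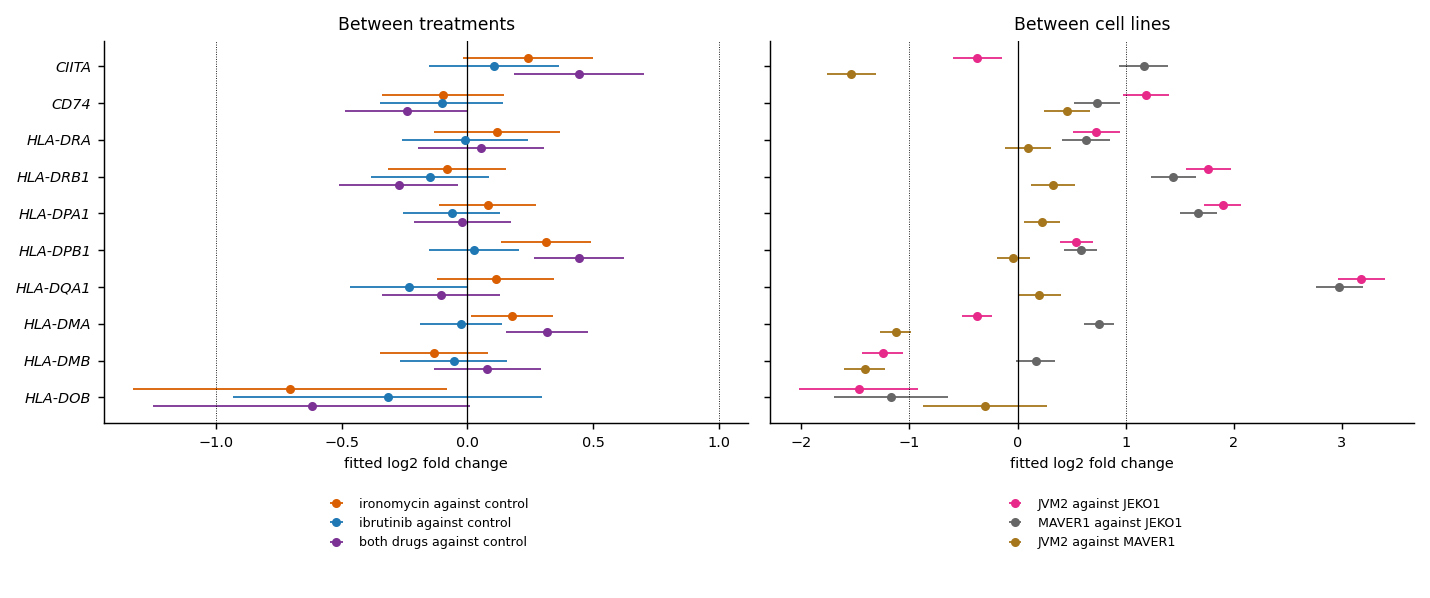
Fitted log2 fold changes of the 10 genes with 95% intervals from the edgeR fit (12 libraries), between treatments on the left and between cell lines on the right; dotted lines mark a log2 fold change of 1 in size, and the x axes of the panels differ. With both drugs the intervals of CIITA, HLA-DPB1 and HLA-DMA lie above 0, and all treatment estimates stay within 1 on the log2 scale.

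HLA-DPB1, the beta chain of DP, had log2 CPM of 7.57 in control, 7.84 under ironomycin, 7.68 under ibrutinib and 7.99 under the combination in JEKO1. In JVM2 the values were 8.17, 8.46, 8.13 and 8.50, and in MAVER1 8.10, 8.49, 8.12 and 8.69. In each line both libraries with ironomycin exceeded both without it. With both drugs HLA-DPB1 rose by 0.44 (SE 0.08, 95% interval 0.27 to 0.62, adjusted p = 0.00495), and against ibrutinib alone by 0.42 (SE 0.08, adjusted p = 0.00816). In that second comparison 2 members passed on adjusted p alone, beside 23.3% of all genes, and 0 on both thresholds, beside 4.66%. With ironomycin alone the fitted change was 0.31 (SE 0.08, adjusted p = 0.0803), which missed the threshold.

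HLA-DMA rose with both drugs by 0.32 (SE 0.07, 95% interval 0.15 to 0.48, adjusted p = 0.0116) against control and by 0.34 (SE 0.07, adjusted p = 0.0111) against ibrutinib. In JEKO1, JVM2 and MAVER1 its log2 ratios to control were 0.37, 0.25 and 0.32, a narrow spread across lines (0.31 ± 0.06, SD, n = 3). CIITA rose with both drugs by 0.44 (SE 0.12, 95% interval 0.19 to 0.70, adjusted p = 0.0190), and its ratios in JEKO1, JVM2 and MAVER1 were 0.11, 0.65 and 0.58. All 3 lines were higher, JEKO1 least. The call of CIITA was lost when any 1 line was left out, at adjusted p of 0.0777 (JEKO1 left out), 0.0943 (JVM2) and 0.180 (MAVER1). Those of HLA-DPB1 and HLA-DMA were kept without JVM2, but lost without JEKO1 (0.0777 and 0.117) and without MAVER1 (0.115 and 0.129). CIITA shares 12.4% of its exonic bases with genes on the opposite strand, mainly DEXI, and whether the counting used strand is not given in the sources used here.

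The invariant chain and HLA-DRB1 leaned the other way. With both drugs, CD74 had log2 ratios to control of -0.40, 0.01 and -0.34 in JEKO1, JVM2 and MAVER1 (fitted -0.24, SE 0.11, adjusted p = 0.124). HLA-DRB1 had ratios of -0.36, -0.02 and -0.44 (fitted -0.27, SE 0.11, adjusted p = 0.0777). Neither passed in the 3 lines together, and both were near 0 in JVM2. Without JVM2 the adjusted p was 0.0379 for CD74 (-0.40) and 0.0183 for HLA-DRB1 (-0.44), and the DESeq2 test over all 3 lines gave 0.0346 and 0.0222, with 33.6% of all genes passing. HLA-DOB differed most between lines, at -1.26, 0.47 and -0.83 in JEKO1, JVM2 and MAVER1 (fitted -0.62, SE 0.29, adjusted p = 0.127), and without JVM2 it fell by 1.13 on the log2 scale (adjusted p = 0.00776). For these 3 genes JVM2 was the line least below control, so leaving it out favours a larger decrease. The share of all genes passing in that smaller fit is not given here, and its values cannot be read as support for a decrease. HLA-DRA, HLA-DPA1, HLA-DQA1 and HLA-DMB had fitted changes between -0.10 and 0.08, with 95% intervals inside -0.34 to 0.30.

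**Figure D4:**
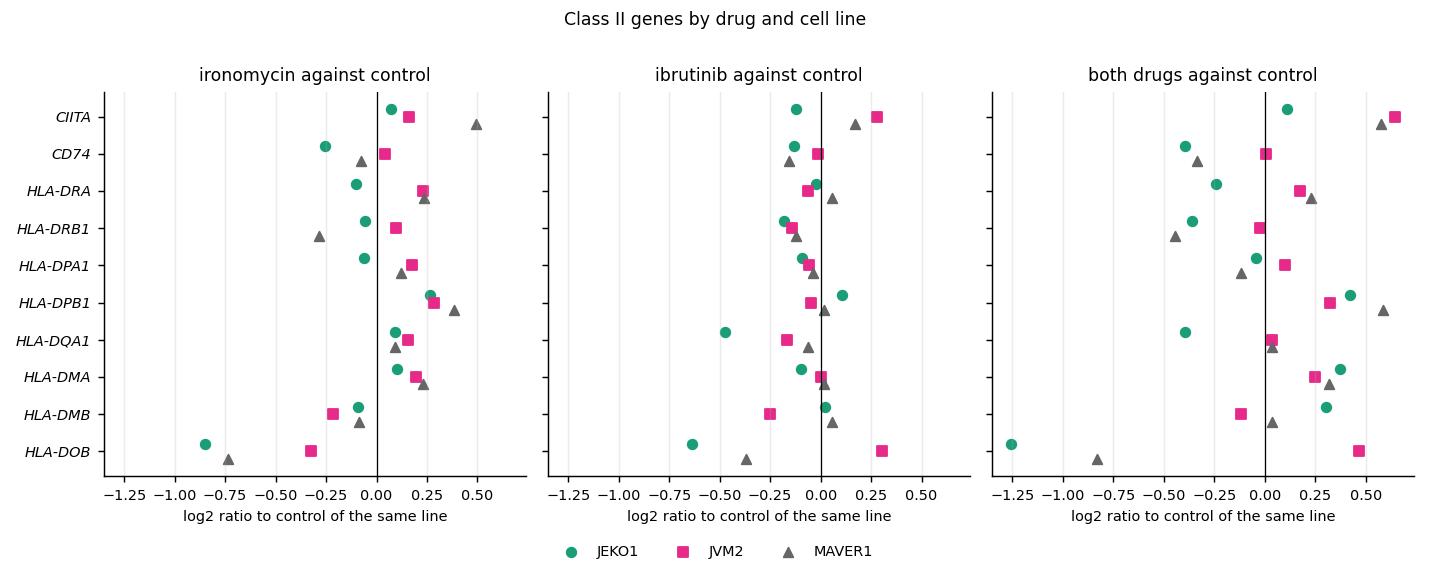
Log2 ratio of each of the 10 genes to the control library of the same cell line, for ironomycin, ibrutinib and both drugs; each point is 1 line, and the x axis is shared. With both drugs the 3 lines lie above 0 for CIITA, HLA-DPB1 and HLA-DMA, and with ironomycin also for HLA-DQA1, while HLA-DMB and HLA-DOB lie below 0 in the 3 lines with ironomycin.

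With ironomycin alone, no member passed on adjusted p (edgeR), with or without the fold threshold, beside 0.584% and 0.214% of all genes, and 3 members had an unadjusted p under 0.05, beside 22.5%. DESeq2 passed HLA-DMA and HLA-DPB1 on adjusted p, 2 of 10 beside 17.4% of the genes to which it gave one. CIITA, HLA-DPB1, HLA-DQA1 and HLA-DMA were higher than control in all 3 lines, beside 21.2% of all genes, and HLA-DMB and HLA-DOB lower in all 3, beside 20.8%, so that 6 of 10 members kept 1 sign, beside 42%. HLA-DOB had the largest fitted change, -0.71 (SE 0.28, adjusted p = 0.178), from ratios of -0.85, -0.32 and -0.74 in JEKO1, JVM2 and MAVER1. The 95% interval of CD74 was -0.34 to 0.15 and that of HLA-DRA -0.13 to 0.37.

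With ibrutinib alone, no gene in the table passed the adjusted p of edgeR (0% of all genes), and no member had an unadjusted p under 0.05, beside 3.64%. CD74, HLA-DRB1, HLA-DPA1 and HLA-DQA1 were below control in all 3 lines, 4 of 10 members beside 15.2% of all genes, and 0 above control in all 3, beside 14.4%, which made 4 of 10 with 1 sign, beside 29.5%. They lay below it by fitted differences of -0.10 (SE 0.11), -0.15 (SE 0.11), -0.06 (SE 0.09) and -0.23 (SE 0.11). The lowest unadjusted p was 0.0505, for HLA-DQA1, whose ratios in JEKO1, JVM2 and MAVER1 were -0.47, -0.17 and -0.06. All 3 signs were equal, but JEKO1 gave most of the difference. Adding ibrutinib to ironomycin likewise moved no member past the adjusted p (0% of all genes), with none at an unadjusted p under 0.05, beside 10.5%. Here 4 members were higher in all 3 lines (CIITA, HLA-DPB1, HLA-DMA and HLA-DMB), beside 19% of all genes, and 4 lower (CD74, HLA-DRA, HLA-DRB1 and HLA-DQA1), beside 19.8%, so that 8 of 10 kept 1 sign, beside 38.8%. Their fitted changes lay between -0.22 and 0.21. The departure of both drugs from the sum of the single changes on the log2 scale lay between -0.05 and 0.40 for the members, with no adjusted p under 0.999 (0% of all genes) and no unadjusted p under 0.05 (1.97%).

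Since each line holds 2 pairs of libraries that differ in ironomycin, with and without ibrutinib, the ironomycin effect was also fitted within each line. The fit used all 12 libraries with the spread shared by the 3 lines, so its p-values do not measure repeats within 1 line. In MAVER1, HLA-DPB1 rose by 0.48 (SE 0.08, adjusted p = 0.00140), CIITA by 0.45 (SE 0.12, adjusted p = 0.0134) and HLA-DMA by 0.26 (SE 0.09, adjusted p = 0.0391), and HLA-DRB1 fell by 0.30 (SE 0.08, adjusted p = 0.0168). These 4 of 10 stood beside 32.3% of all genes in that line. In JEKO1, HLA-DPB1 rose by 0.29 (SE 0.08, adjusted p = 0.0207) and HLA-DMA by 0.29 (SE 0.09, adjusted p = 0.0276), and HLA-DOB fell by 0.76 (SE 0.27, adjusted p = 0.0487), 3 of 10 beside 33.3% of all genes. In JVM2 none passed, beside 2.27% of all genes. HLA-DPB1 was closest, with 0.33 (SE 0.08, adjusted p = 0.0680), a value of the same size as in the other lines.

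The lines were compared directly by the interaction of ironomycin with cell line, which 7.97% of all genes passed and no member did. The lowest values were those of the 2 DR chains. HLA-DRA had ironomycin log2 ratios of -0.10 and -0.22 in JEKO1 (without and with ibrutinib), 0.23 and 0.24 in JVM2, and 0.23 and 0.17 in MAVER1 (adjusted p = 0.0970). HLA-DRB1 had -0.06 and -0.18 in JEKO1, 0.10 and 0.12 in JVM2, and -0.28 and -0.32 in MAVER1 (adjusted p = 0.106). For HLA-DRA the pairs of JVM2 and MAVER1 overlapped, and only JEKO1 lay apart. For HLA-DRB1 the lines did not overlap. The JEKO1 ratio with ibrutinib (-0.18) nevertheless lay nearer to the MAVER1 ratio without it (-0.28) than to the other JEKO1 ratio (-0.06). DESeq2's likelihood ratio test passed both genes, beside 15.9% of the genes to which it gave an adjusted p. For HLA-DPB1 the interaction gave an adjusted p of 0.501 and for HLA-DMA 0.942. Within lines, the ibrutinib effect passed for no member in JEKO1, JVM2 or MAVER1, beside 0.461%, 0.00536% and 0% of all genes. The lowest adjusted p was that of HLA-DQA1 in JEKO1 (-0.48, SE 0.10, adjusted p = 0.0766), from ratios of -0.47 without and -0.49 with ironomycin. The interaction of ibrutinib with cell line was passed by 0 members, beside 0.0107% of all genes.

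Ratios of read counts within a library do not depend on scaling, and describe how partner chains moved against each other. The log2 ratio of HLA-DPB1 to HLA-DPA1, the chains of DP, in JEKO1 was -0.59 in control and -0.12 under the combination, against -1.78 and -1.55 in JVM2 and -1.68 and -0.98 in MAVER1. It was higher with both drugs in all 3 lines, by 0.47, 0.22 and 0.70. The ratio of HLA-DRA to HLA-DRB1, the chains of DR, was 0.50 in control, 1.02 under ironomycin, 0.68 under ibrutinib and 1.17 under the combination in MAVER1, against a span of 1.54 to 1.74 in JEKO1 and 0.51 to 0.71 in JVM2. The widest shift was thus in MAVER1. HLA-DPA1 and HLA-DPB1 overlap by 96 exonic bases on opposite strands.

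For HLA-DM, the log2 ratio of HLA-DMA to HLA-DMB was higher with ironomycin than in control by 0.19, 0.41 and 0.32 in JEKO1, JVM2 and MAVER1, and with both drugs by 0.07, 0.37 and 0.28. Against the HLA-DO chains the results differed. The log2 ratio of HLA-DMA to HLA-DOA, the more abundant chain with up to 7743 reads, changed with ironomycin by 0.03, -0.16 and 0.01 and with both drugs by 0.40, -0.12 and 0.12 in JEKO1, JVM2 and MAVER1. The ratio of HLA-DMA to HLA-DOB, with 27 to 185 reads, changed with ironomycin by 0.96, 0.54 and 0.99. With both drugs it changed by 1.65, -0.24 and 1.18, so JVM2 went the other way, with 33 reads of HLA-DOB in control and 49 with both drugs. The ratio of CD74 to HLA-DRA was lower with both drugs in all 3 lines, by 0.15, 0.17 and 0.57 in the same order of lines. These ratios were not tested.

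**Figure D5:**
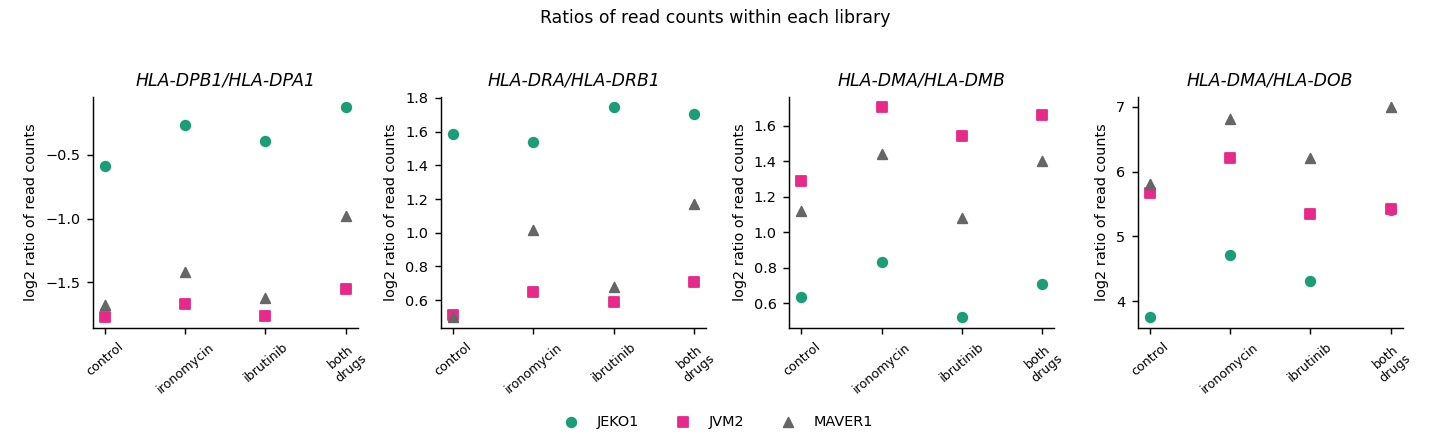
Log2 ratios of read counts within each library for HLA-DPB1 to HLA-DPA1, HLA-DRA to HLA-DRB1, HLA-DMA to HLA-DMB and HLA-DMA to HLA-DOB, by treatment on the x axis and by cell line (colour and shape); each point is 1 library and each panel has its own y axis. The DP ratio is higher with both drugs than in control in each line, and the DR ratio moves most in MAVER1.

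The pathway around the class II genes was described by 6 further gene lists, in which 18 of the 72 genes tested (25%) passed the adjusted p with both drugs, beside 28.2% of all genes. None of the 18 passed it without JEKO1 (adjusted p 0.0682 to 0.335) or without MAVER1 (0.0870 to 0.285), and 16 passed it without JVM2, HLA-DPB2 and SOCS1 being the exceptions. The 18 were picked because they passed with all 3 lines, and the shares of all genes in these smaller fits are not given here. These counts therefore cannot be read as a trait of these genes. Leaving out MAVER1 lowered the fitted change of IRF8 to -0.47, of CTSD to 0.37 and of MARCHF8 to 0.34, and leaving out JEKO1 lowered that of SOCS1 to 0.43 and of HLA-F to 0.32. Leaving out JVM2 raised those of CD86 and IFI30 in size, to -3.26 and 1.92.

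Among the 7 other class II genes listed, all tested, 1 passed both thresholds with both drugs, beside 1.48% of all genes lower and 4.81% higher. This was HLA-DPB2, a pseudogene, which fell by 1.01 (SE 0.34, adjusted p = 0.0449) on 53, 16 and 2 reads in the JEKO1, JVM2 and MAVER1 controls, and 27, 6 and 3 with both drugs. The call was lost without any 1 of the 3 lines, with adjusted p of 0.335 (JEKO1 left out), 0.150 (JVM2) and 0.108 (MAVER1). With ironomycin none passed, and the lowest p values were those of HLA-DOA (0.22, SE 0.08, adjusted p = 0.164), the other chain of HLA-DO, and HLA-DQB1 (0.22, SE 0.09, adjusted p = 0.200). With ibrutinib they were those of HLA-DPB2 (-1.15, SE 0.34) and HLA-DQB2 (-0.35, SE 0.12), both at an adjusted p over 0.999. Within lines, HLA-DQB1 rose with ironomycin in JEKO1 by 0.35 (SE 0.11, adjusted p = 0.0328) and HLA-DRB6 fell in MAVER1 by 0.54 (SE 0.17, adjusted p = 0.0314), both chosen after their values were seen. HLA-DRB5 in MAVER1, chosen likewise, fell with ironomycin by 0.33 (SE 0.09, adjusted p = 0.0116), close to HLA-DRB1 with which it shares sequence.

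Of 19 enhanceosome and CIITA regulator genes, none passed both thresholds with both drugs, beside 6.29% of all genes. On adjusted p alone 1 rose and 3 fell, beside 14.2% of all genes higher and 14% lower. SPI1, which encodes the ETS factor PU.1, fell by 0.68 (SE 0.14, adjusted p = 0.00670), and IRF8, a factor of B cell and myeloid identity, fell by 0.97 (SE 0.26, adjusted p = 0.0193). Chosen after its values were seen, SOCS1, an inhibitor of interferon signalling, rose by 0.86 (SE 0.27, adjusted p = 0.0358). NFYC, a subunit of the Y box binding factor NF-Y and likewise chosen after its values were seen, fell by 0.31 (SE 0.08, adjusted p = 0.0210). With ironomycin alone no gene of the list passed, SPI1 at -0.49 (SE 0.14, adjusted p = 0.0873) and IRF8 at -0.91 (SE 0.26, adjusted p = 0.0894) having the lowest p. With ibrutinib, NFYB (0.16, SE 0.08) and the interferon gamma receptor gene IFNGR1 (-0.19, SE 0.10) did, at adjusted p over 0.999. Within lines, ironomycin passed both thresholds in MAVER1 for IRF8 (-1.31, SE 0.20, adjusted p = 0.000606) and PRDM1 (1.16, SE 0.20, adjusted p = 0.00105), a factor of plasma cell differentiation, and ibrutinib in JEKO1 for SOCS1 (1.48, SE 0.19, adjusted p = 0.0177). For these and the later effects within lines, the shares of all genes past both thresholds are not given here.

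Of the 10 endosomal protease and peptide loading genes, 9 were tested. With both drugs 1 passed both thresholds, beside 4.81% of all genes higher and 1.48% lower. IFI30, the lysosomal thiol reductase GILT, rose by 1.21 (SE 0.36, adjusted p = 0.0296), from 10, 39 and 9 reads in the JEKO1, JVM2 and MAVER1 controls to 35, 49 and 44. JVM2 moved least, and the adjusted p was 0.214 without JEKO1 and 0.219 without MAVER1. On adjusted p alone, and chosen after their values were seen, cathepsin D (CTSD) rose by 0.79 (SE 0.22, adjusted p = 0.0234) and cathepsin Z (CTSZ) fell by 0.78 (SE 0.11, adjusted p = 0.00321). With ironomycin none passed, and CTSZ (-0.44, SE 0.11, adjusted p = 0.0776) and CTSD (0.64, SE 0.22, adjusted p = 0.129) had the lowest p. With ibrutinib these were CTSZ (-0.31, SE 0.11) and cathepsin S, CTSS (-0.18, SE 0.09), which trims the invariant chain in B cells, at adjusted p over 0.999. Within lines, ironomycin passed both thresholds for IFI30 in JEKO1 (1.28, SE 0.35, adjusted p = 0.0151) and MAVER1 (1.68, SE 0.32, adjusted p = 0.00219) and for CTSD in MAVER1 (1.34, SE 0.12, adjusted p = 2.9e-05). On adjusted p alone 4 of 9 passed in JEKO1, 0 in JVM2 and 5 in MAVER1, beside 33.3%, 2.27% and 32.3% of all genes. CTSD passed the interaction with cell line (adjusted p = 0.00718), the 1 gene of 9 that did.

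Between treatments, none of the 10 genes of class II trafficking and turnover passed both thresholds, beside 6.29% of all genes with both drugs against control. MARCHF8, a ubiquitin ligase that removes surface proteins including class II, rose with both drugs by 0.57 (SE 0.16, adjusted p = 0.0229), and the tetraspanin CD37 changed by -0.53 (SE 0.21, adjusted p = 0.0861). With ironomycin, MARCHF8 (0.42, SE 0.16, adjusted p = 0.160) and CD37 (-0.43, SE 0.21, adjusted p = 0.255) had the lowest p, and with ibrutinib the tetraspanins CD82 (-0.74, SE 0.46) and CD9 (0.37, SE 0.24), at adjusted p over 0.999. The interaction of ironomycin with cell line was passed by CD37, CD9, MARCHF1 and MARCHF8, 4 of 10 beside 7.97% of all genes. It was passed by 5 of 19 enhanceosome and CIITA regulator genes, 3 of 17 MHC class I genes and 1 of 9 protease genes. Of the 10 costimulation and 7 other class II genes, 0 passed. Within lines, ironomycin passed on adjusted p alone for 3 of the 10 trafficking genes in JEKO1, 0 in JVM2 and 5 in MAVER1. The shares of all genes were 33.3%, 2.27% and 32.3%.

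Of 10 costimulation and adhesion genes, 1 passed both thresholds with both drugs, beside 4.81% of all genes higher and 1.48% lower. This was CD86, a ligand of CD28 on T cells. It fell by 1.86 (SE 0.57, adjusted p = 0.0332), with CPM in JEKO1 of 38.9 in control and 6.01 under the combination, against 200.9 and 208.8 in JVM2 and 6.52 and 0.343 in MAVER1. The decrease was in JEKO1 and MAVER1 and not in JVM2, and the adjusted p was 0.282 without JEKO1 and 0.197 without MAVER1. CD70, chosen after its values were seen, fell by 0.77 on the log2 scale (SE 0.17, adjusted p = 0.00932). The list's median was -0.13, with 4 of 10 above 0. With ironomycin, CD86 (-1.33, SE 0.54, adjusted p = 0.185) and CD58 (0.42, SE 0.17, adjusted p = 0.191), a ligand of CD2, had the lowest p. With ibrutinib, TNFSF9 (-0.66, SE 0.20) and CD70 (-0.52, SE 0.17), ligands of the TNF family, did, at adjusted p over 0.999. Within JEKO1, however, ibrutinib passed both thresholds for the adhesion gene ICAM1 (-1.93, SE 0.31, adjusted p = 0.0372) and TNFSF9 (-1.06, SE 0.16, adjusted p = 0.0329). CD70, again chosen after its values were seen, fell there by 0.92 (SE 0.15, adjusted p = 0.0405). Thus 3 of 10 passed the adjusted p beside 0.461% of all genes, and 0 in JVM2 and MAVER1, beside 0.00536% and 0%. The interaction of ibrutinib with cell line was passed by none of the list. In MAVER1 ironomycin passed both thresholds for CD86 (-2.98, SE 0.74, adjusted p = 0.00911) and for CD274 (1.29, SE 0.25, adjusted p = 0.00264), which encodes PD-L1. On adjusted p alone 5 of 10 passed there, beside 32.3% of all genes, and 0 in JEKO1 and JVM2, beside 33.3% and 2.27%.

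MHC class I, the neighbouring pathway for cytosolic peptides, served as a comparison. None of its 17 genes passed both thresholds with both drugs, beside 6.29% of all genes, and 4 rose and 3 fell on adjusted p alone, beside 14.2% and 14%. The immunoproteasome genes PSMB8 and PSMB9 fell by 0.68 (SE 0.12, adjusted p = 0.00473) and 0.37 (SE 0.07, adjusted p = 0.00650). PSMB10 fell as well, and ERAP1, ERAP2, HLA-F and PDIA3 rose, by 0.42 to 0.48, all chosen after their values were seen. With ironomycin, PSMB8 (-0.48, SE 0.12, adjusted p = 0.0771) and PDIA3 (0.45, SE 0.14, adjusted p = 0.0984), a chaperone of peptide loading, had the lowest p. With ibrutinib, NLRC5 (0.25, SE 0.10), the class I counterpart of CIITA, and HLA-F (0.16, SE 0.12) did, at adjusted p over 0.999. Within lines, ironomycin passed on adjusted p alone in JEKO1, JVM2 and MAVER1 for 9, 0 and 6 of the 17, beside 33.3%, 2.27% and 32.3% of all genes.

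Between lines, the share of all genes past both thresholds against JEKO1 was 22.8% higher and 23.9% lower in JVM2, and 15.1% higher and 19.1% lower in MAVER1. Beside these, 13 of 17 class I genes were higher in JVM2 than in JEKO1 past both thresholds and 0 lower, and in MAVER1 9 were higher and 1 lower. For costimulation and adhesion 8 of 10 were higher and 0 lower in JVM2, and 4 higher and 1 lower in MAVER1, and for class II trafficking 6 and 2 of 10, then 4 and 1. Of the other class II genes, 5 of 7 were higher and 1 lower in JVM2, but 1 higher and 4 lower in MAVER1. The enhanceosome list had 5 higher and 4 lower of 19 in JVM2 and 5 and 3 in MAVER1, and the protease list 3 and 1 of 9, then 1 and 1.

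Of the 11204 named genes whose mean log2 CPM reached 1, those whose levels over the 12 libraries were most like CIITA were ZNF814 (Pearson r = 0.988), MTA1-DT (0.978), ZKSCAN1 (0.978), MINAR1 (0.978) and ZNF776 (0.976). Those most like CD74 after each line's mean was subtracted were RINL (0.976), CYB5R4 (0.967), UVRAG (0.965), CMAS (0.957) and TLR10 (0.955). These are descriptions over libraries that share 3 cell lines, of which the first set mainly reflects the order of the lines.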

How the data were processed

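The submitters' processing notes name the genome build GRCh37 and the tools STAR and DESeq2, without versions. The authors deposited raw read counts per Ensembl gene, 1 column per library, and no column was left unused (0). The counting tool, its strand setting and the annotation release are not given in the sources used here. Libraries were stranded, polyadenylated and paired-end (DNBSEQ). Symbols were matched to 39699 of 63677 gene IDs.

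Counts were tested with edgeR 4.0.16 (R 4.3.3): TMM normalisation, filterByExpr, and the quasi-likelihood F-test with treatment and cell line as terms over all 12 libraries, with Benjamini-Hochberg adjustment over 18674 genes. Both thresholds means an adjusted p under 0.05 with a fitted log2 change of 1 or more, up or down; "rose" and "fell" need the adjusted p alone. SE is the log2 fold change divided by the square root of F, and intervals are 95% and unadjusted. Log2 CPM used a prior count of 2. Effects within lines and interactions (2 coefficients) came from fits with line by drug terms. The fits were tested on simulated data. The cell line was the block because libraries of a line come from the same cells: deviations from treatment means correlated at 0.926 to 0.976 within lines (18 pairs) and at -0.705 to -0.127 between lines (48 pairs).

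The members and gene lists were chosen with earlier results of these data known. All members are named. From each list, the genes past both thresholds (at most 6) or, failing these, the 2 with the lowest p were named for the comparisons against control. For the effects within lines, genes past both thresholds were named. The comparisons of lines are given by counts, a narrowing made after values were seen. Genes named for the ironomycin interaction, and HLA-DQB1 and HLA-DOA beside their partner chains, fall outside this rule. Other genes outside it are marked as chosen after their values were seen. Lists were described by counts and medians and not tested. Transcript lengths and overlaps came from GENCODE v29 (GRCh38), used for names and lengths only, and promoters from RefSeq. The alternatives tried were DESeq2 1.42.0, other scalings, no filter, summed symbols, fits without the block, 2-group fits and leaving out each line or treatment. Some results of the gene lists are not reported here.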

Additional observations from a re-analysis of the deposited data

Results flagged for a closer look

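In 4 cases every pair of libraries of a line moved one way and every pair of another line the opposite way. The share of all genes that meet this rule is not given here, so the count cannot be read as a trait of these genes. The interaction test of edgeR, which tests that difference over the 3 lines, passed for none of them. The ironomycin effect on CD74 was above 0 in both pairs of JVM2 (0.04 and 0.02) and below 0 in JEKO1 (-0.25 and -0.26) and MAVER1 (-0.07 and -0.18), with an adjusted interaction p of 0.382. For HLA-DRA it was above 0 in JVM2 and MAVER1 and below 0 in JEKO1 (adjusted p = 0.0970), and for HLA-DRB1 above 0 in JVM2 and below 0 in JEKO1 and MAVER1 (adjusted p = 0.106). The ibrutinib effect on HLA-DOB was above 0 in JVM2 (0.30 and 0.79) and below 0 in JEKO1 (-0.64 and -0.41) and MAVER1 (-0.37 and -0.09), with an adjusted p of 1, on 27 to 185 reads.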

How the results depend on the processing

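Without the fold threshold, the count of members with both drugs rose from 0 to 3 against control and from 0 to 2 against ibrutinib, and between lines it rose to 10 (JVM2 against JEKO1), 9 (MAVER1 against JEKO1) and 6 (JVM2 against MAVER1). On both thresholds, leaving out each line gave 0 to 1 members with both drugs against control, HLA-DOB without JVM2. On adjusted p alone, CD74, HLA-DRB1, HLA-DPB1 and HLA-DMA also passed without JVM2. The shares of all genes in these smaller fits are not given here. For the ironomycin interaction, leaving out each line gave 0 to 1 members, and DESeq2 over all 3 lines gave 2, HLA-DRA and HLA-DRB1. Of the alternative counts of members past the threshold, 106 stayed within 1.5 times the main count and 8 did not. The fit without the replicate block, in which the pairing by line is ignored, gave 0 members in every treatment comparison and put the change of HLA-DQA1 with both drugs at 0.012. There CIITA (0.47), HLA-DPB1 (0.45) and HLA-DMA (0.32) kept their direction with adjusted p over 0.999, and in the 6 libraries of both groups alone their adjusted p was 0.127, 0.100 and 0.156. Scaling by library totals shifted the median of all genes by 0.12 with both drugs against control, 0.10 against ibrutinib, -0.22 for JVM2 against JEKO1 and -0.19 for MAVER1 against JEKO1. Under it, signs turned for HLA-DRA with ibrutinib (0.012), HLA-DPA1 (0.10) and HLA-DQA1 (0.017) with both drugs, and HLA-DMB between MAVER1 and JEKO1 (-0.019), none past the threshold. Leaving out 1 line at a time also turned signs of changes near 0. With ironomycin HLA-DRB1 ranged from -0.19 to 0.017. With ibrutinib HLA-DRA ranged from -0.041 to 0.013, HLA-DPB1 from -0.014 to 0.063, HLA-DMA from -0.045 to 0.012 and HLA-DMB from -0.11 to 0.037. With both drugs HLA-DRA ranged from -0.041 to 0.20, HLA-DPA1 from -0.11 to 0.024, HLA-DQA1 from -0.21 to 0.034 and HLA-DMB from -0.041 to 0.14. Leaving out 1 treatment put HLA-DPB1 between JVM2 and MAVER1 at -0.066 to 0.014. Over the single-gene results, 555 alternatives kept direction and side of the threshold, 11 passed it anew, 18 fell short of it and 16 turned sign; causes were not tested. HLA-DOB, with 27 to 185 reads per library, had the widest intervals of the members.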
